A study of Mus musculus with 6 samples.

Results

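The DNA replication and mitosis genes described here were 43 genes listed by symbol, 29 that act in S phase and 14 that act mainly in mitosis, among 19752 genes measured on microarrays of sorted mature CD4 SP thymocytes. For 42 of them the value table held a row whose annotation gave the symbol alone, and for a gene with more than 1 such row the brightest was used. *Ccnb1* had no such row and its expression was not analysed here. The choice used no measured value, although the list was drawn up with other results of the same arrays known. Of the 29 S-phase genes, 11 were higher in dKO cells, among them all 6 subunits of the Mcm2-7 helicase, whereas cyclin E1 (*Ccne1*) and *E2f2* were lower. Of the 13 mitotic genes measured, *Cdc20* was higher, *Mki67* and *Top2a* were lower, and 10 did not pass the test. Over all genes 13.1% were higher and 10.0% lower, and the 23.1% called in all equals the share of the mitotic genes.

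Cells were Vα2hi CD24lo CD4 single-positive (SP) thymocytes, which carried the OT-II T-cell receptor transgene in both genotypes and were sorted from 3 wild-type and 3 dKO samples. The dKO cells were deficient for Jmjd3 (*Kdm6b*) and Utx (*Kdm6a*), demethylases of the repressive histone mark H3K27me3, through Cd4-Cre deletion of floxed alleles, which begins at the CD4+CD8+ double-positive (DP) stage. Wild-type cells were Cre-negative, and the Methods describe Cre-negative littermates with floxed alleles as the wild-type controls, so that Cre itself differed between the groups. The labels number the arrays as biological replicates but tie none of them to a mouse, an age or a sex, and the p-values measure only the spread between these samples. The row of *Kdm6a* lay between 10.11 and 10.20 in wild-type and between 9.40 and 9.58 in dKO arrays, whereas that of *Kdm6b* overlapped between 9.83 to 9.97 and 9.71 to 9.86; these rows may include exons outside the deleted part.

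Replication begins when origins are licensed in G1: the origin recognition complex, Cdc6 and Cdt1 load the ring of Mcm2 to Mcm7 onto DNA, and Cdk2 with E-type cyclins helps start S phase, when Cdc45 and GINS activate the ring as the replicative helicase. E2F factors bind the promoters of many of these genes, and their activity is held back by Rb. Genes of mitosis are transcribed later in the cycle, and many have CHR and CCAAT elements near the start of transcription, through which the DREAM and MuvB complexes act. Thymocytes divide mainly before and around the DP stage, and most mature SP cells are resting.

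Promoter windows of 300 bases, 250 before to 50 after the annotated start (RefSeq, GRCm38.p6), were on hand for 36 of the 43 members and for 27025 genes in all. Matches to the E2F-type letters TTTGGCGC, TTTCGCGC, TTTCCCGC and TTTGCCGC were found on either strand in 12 of 24 S-phase genes (50%), in 1 of 12 mitotic genes (8.33%) and in 2.60% of all genes. The CHR-type letters TTTGAA occurred in 5 of 24 S-phase genes (20.8%), in 8 of 12 mitotic genes (66.7%) and in 20.2% of all genes. CCAAT was found in 16 of 24 (66.7%), 11 of 12 (91.7%) and 41.1%, respectively. E2F-type letters stood in the windows of *Mcm3*, *Mcm5*, *Mcm6*, *Mcm7*, *Cdc6*, *Cdt1*, *Pola1*, *Lig1*, *Cdk2*, *E2f2*, *E2f3*, *E2f7* and *Cdk1*, which include genes that were higher, lower or not called in dKO cells. The 200 bases upstream of the start are shown for 3 helicase genes that were higher, for the 2 S-phase genes that were lower and for the 3 mitotic genes that were called, read 5′ to 3′ on the strand of the gene with every match to 1 of the 3 motifs in capitals on either strand.
Mcm5 (chr8:75109309-75109508, + strand): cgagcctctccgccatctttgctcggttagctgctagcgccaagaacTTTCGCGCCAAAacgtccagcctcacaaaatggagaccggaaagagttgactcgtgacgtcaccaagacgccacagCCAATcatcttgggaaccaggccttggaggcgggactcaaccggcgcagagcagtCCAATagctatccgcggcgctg
Mcm6 (chr1:128359706-128359905, - strand): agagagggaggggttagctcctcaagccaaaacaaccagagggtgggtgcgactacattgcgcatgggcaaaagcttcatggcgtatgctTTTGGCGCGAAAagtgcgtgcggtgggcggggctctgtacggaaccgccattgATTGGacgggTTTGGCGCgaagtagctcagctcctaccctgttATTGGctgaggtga
Mcm7 (chr5:138171884-138172083, - strand): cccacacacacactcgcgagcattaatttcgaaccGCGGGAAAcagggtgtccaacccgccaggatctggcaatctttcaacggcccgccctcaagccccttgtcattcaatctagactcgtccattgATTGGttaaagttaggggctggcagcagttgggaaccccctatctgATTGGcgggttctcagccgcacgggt
Ccne1 (chr7:38107491-38107690, - strand): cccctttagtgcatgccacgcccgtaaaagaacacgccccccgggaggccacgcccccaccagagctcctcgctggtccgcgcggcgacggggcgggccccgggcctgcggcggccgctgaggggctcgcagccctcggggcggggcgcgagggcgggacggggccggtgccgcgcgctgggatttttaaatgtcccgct
E2f2 (chr4:136172074-136172273, + strand): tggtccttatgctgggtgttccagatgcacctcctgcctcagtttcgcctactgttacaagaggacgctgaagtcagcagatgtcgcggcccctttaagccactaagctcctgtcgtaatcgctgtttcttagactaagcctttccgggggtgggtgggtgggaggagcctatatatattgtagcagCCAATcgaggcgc
Mki67 (chr7:135716380-135716579, - strand): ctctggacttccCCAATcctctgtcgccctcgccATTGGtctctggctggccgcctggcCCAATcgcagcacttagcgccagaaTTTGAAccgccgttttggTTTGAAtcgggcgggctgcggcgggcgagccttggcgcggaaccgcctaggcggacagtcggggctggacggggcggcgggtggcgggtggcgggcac
Top2a (chr11:99024190-99024389, - strand): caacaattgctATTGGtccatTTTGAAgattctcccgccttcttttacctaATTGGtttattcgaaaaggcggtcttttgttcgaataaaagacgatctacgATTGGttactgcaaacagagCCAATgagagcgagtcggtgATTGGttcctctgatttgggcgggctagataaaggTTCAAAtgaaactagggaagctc
Cdc20 (chr4:118437344-118437543, - strand): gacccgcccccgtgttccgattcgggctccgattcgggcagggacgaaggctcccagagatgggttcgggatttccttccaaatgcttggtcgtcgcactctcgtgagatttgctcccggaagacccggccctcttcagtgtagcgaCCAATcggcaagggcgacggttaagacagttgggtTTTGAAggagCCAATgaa
In *Mcm5* and *Mcm6*, E2F-type matches on the 2 strands overlapped and form a single run of capitals. No match lay in the stretch of *Ccne1*, and the E2F-type match of *E2f2* lay after the start, outside the stretch shown. The stretches of *Mki67* and *Top2a* each held 2 CHR-type matches, and that of *Cdc20* held 1.

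**Figure D1:**
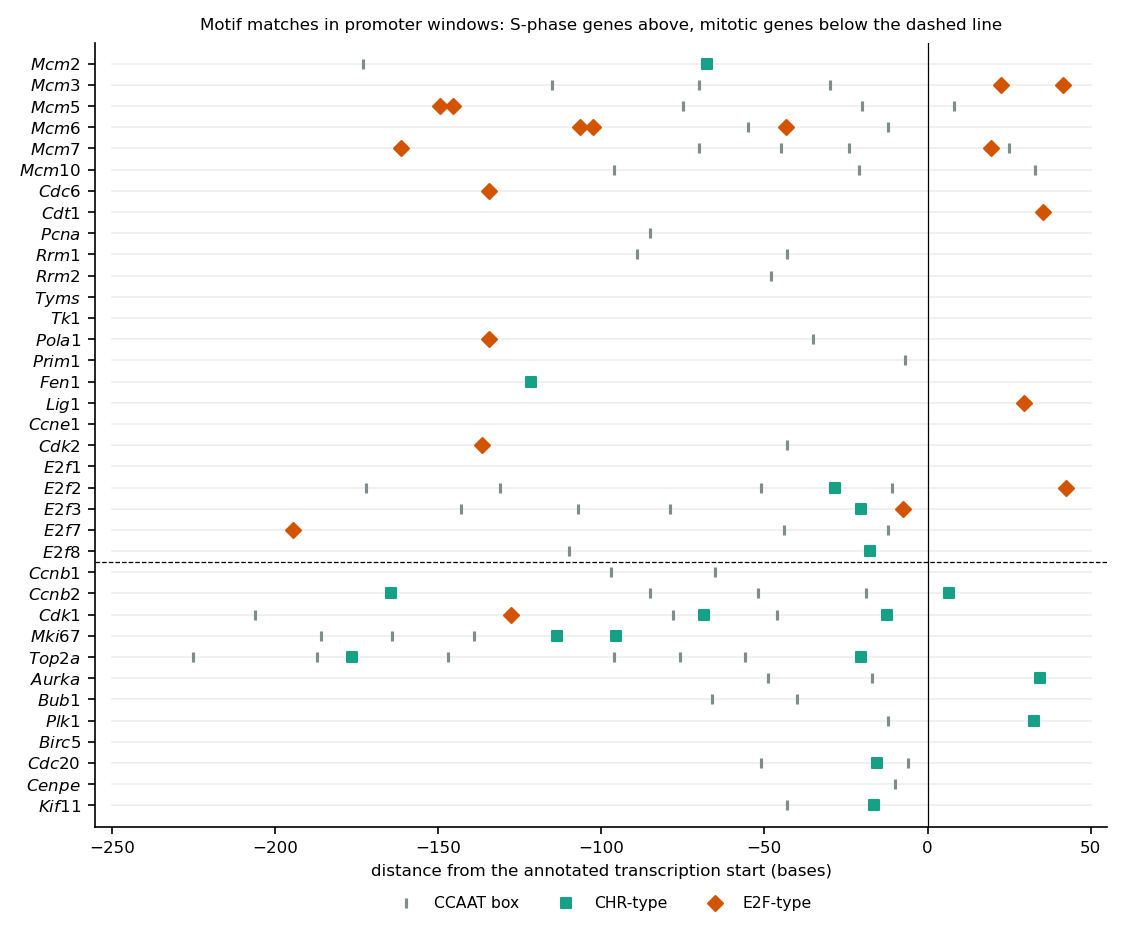
Position of each motif match in the promoter windows of the 36 members with a window, in bases from the annotated start (x axis), with all windows of a gene drawn on 1 line. E2F-type matches (diamonds) lie in 12 S-phase genes and in *Cdk1*, and CHR-type matches (squares) in 8 mitotic and 5 S-phase genes.

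Values are log2 intensities after RMA, a method that corrects background, gives the probe values of all arrays the same distribution and summarizes probes to 1 value per row. A gene was called higher or lower where limma gave an adjusted p under 0.05 over all 19752 genes. In this comparison 23.1% of all genes were called, 13.1% higher and 10.0% lower in dKO cells, so that a large share of any list would be called. Among the S-phase genes 11 were higher, 2 lower and 16 not called, which is 44.8% called, with a median log2 fold change of 0.13 against 0.01 over all genes. Among the 13 mitotic genes 1 was higher, 2 lower and 10 not called, which at 23.1% equals the share of all genes, with a median of -0.11, which was -0.17 without dKO replicate 1 and -0.06 without dKO replicate 3. All 3 dKO arrays lay above all 3 wild-type arrays for 14 of 29 S-phase and 2 of 13 mitotic genes, against 21.3% of all genes. They lay below for 5 of 29 S-phase and 3 of 13 mitotic genes, against 16.5% of all genes. With Student's t-test in place of limma, 6 S-phase genes were higher and 2 lower.

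**Figure D2:**
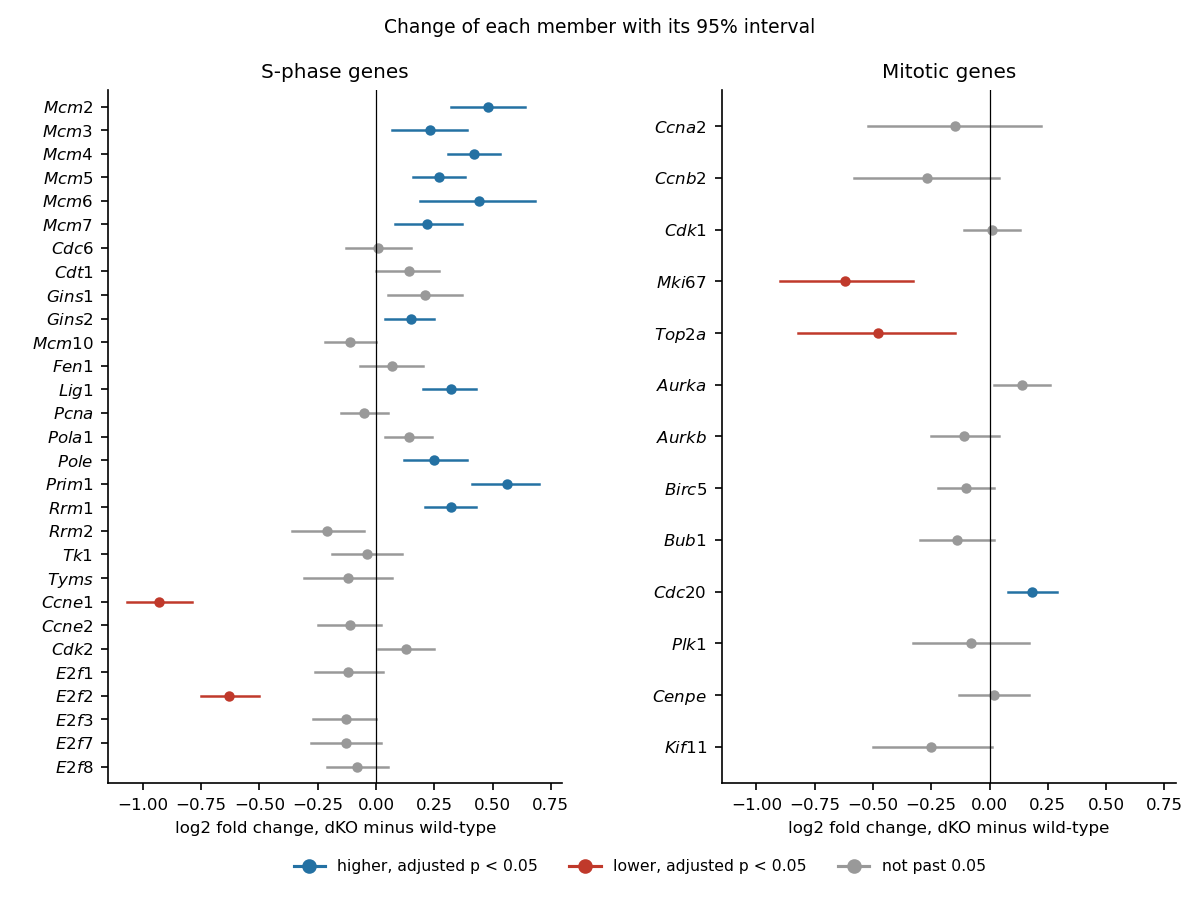
Log2 fold change of each member (dKO minus wild-type, x axis) with its 95% interval from limma, S-phase genes on the left and mitotic genes on the right. Blue and red mark the 12 members called higher and the 4 called lower at an adjusted p under 0.05, and grey marks the 26 others.

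The replicative helicase was the one group in which every member was higher. Wild-type arrays 1, 2 and 3 gave 9.04, 8.89 and 8.76 for *Mcm2* and dKO arrays gave 9.44, 9.41 and 9.29, a 1.39-fold higher level (log2 fold change 0.48 ± 0.07 SE, adjusted p = 0.0010). *Mcm4* was at 9.14, 9.08 and 9.20 in wild-type and at 9.58, 9.53 and 9.58 in dKO cells (0.42 ± 0.05, adjusted p = 2.1e-04). For *Mcm5*, wild-type values of 9.02, 9.11 and 9.01 stood against 9.35, 9.31 and 9.29 (0.27 ± 0.05, adjusted p = 0.0027). The genotypes did not overlap in any of these 3 genes. *Mcm6* was at 8.08, 7.96 and 7.56 in wild-type cells and at 8.30, 8.29 and 8.34 in dKO cells (0.44 ± 0.11, adjusted p = 0.016), with wild-type replicate 3 well below the other wild-type arrays. *Mcm3* gave 7.64, 7.58 and 7.42 against 7.89, 7.78 and 7.66 (0.23 ± 0.07, adjusted p = 0.044). *Mcm7* gave 9.34, 9.18 and 9.07 against 9.43, 9.39 and 9.43 (0.22 ± 0.07, adjusted p = 0.035). In both the lowest dKO array was only just above the highest wild-type array, and the calls were easily lost: without wild-type replicate 2 or 3, or dKO replicate 1 or 2, the adjusted p lay between 0.086 and 0.147 for *Mcm3* and between 0.073 and 0.105 for *Mcm7*, which was also lost without dKO replicate 3 (0.089). Cyclic loess normalization also ended both calls (0.081 and 0.065), and that of *Mcm6* was lost without dKO replicate 3 (adjusted p = 0.055). With Student's t-test 2 of the 6, *Mcm4* and *Mcm5*, passed. All 6 log2 fold changes stayed above 0 under each alternative run, between 0.16 and 0.55.

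**Figure D3:**
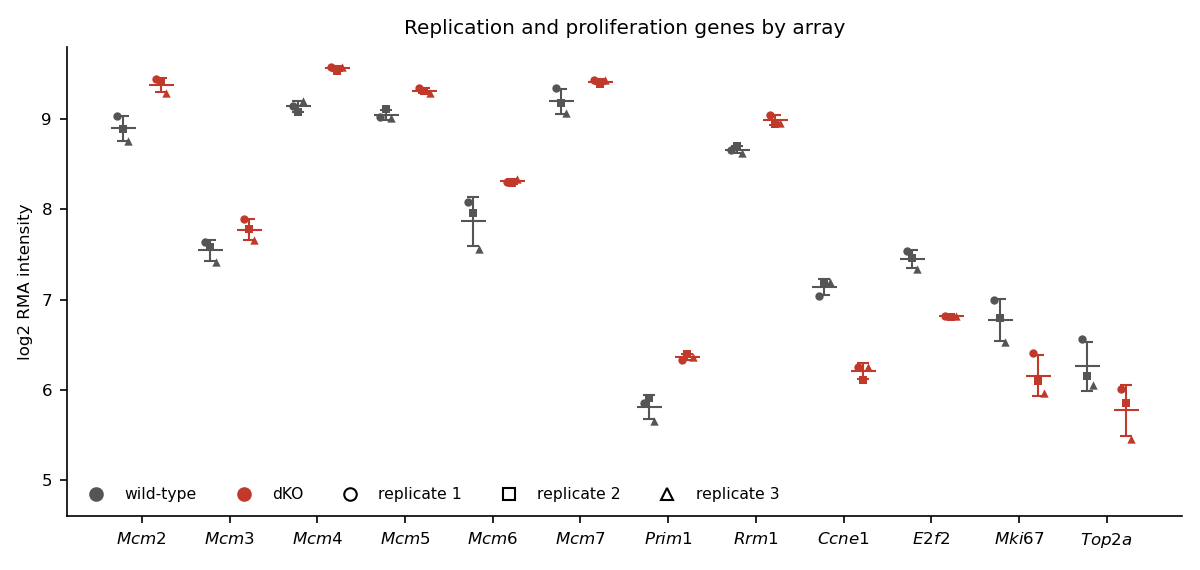
Log2 RMA intensity (y axis) of 12 members on each of the 6 arrays, wild-type in grey and dKO in red, with a symbol per replicate number and the mean ± SD of 3 arrays. The 6 helicase genes, *Prim1* and *Rrm1* lie higher in dKO cells and *Ccne1*, *E2f2*, *Mki67* and *Top2a* lie lower. The 12 were picked from the 16 members called, none of which overlapped between genotypes. Over all genes, 21.3% were higher and 16.5% lower without overlap.

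Of 5 genes that load or activate the helicase, only *Gins2*, a subunit of the GINS complex, was called, at 7.53, 7.62 and 7.61 in wild-type and 7.74, 7.74 and 7.72 in dKO cells (0.15 ± 0.05, adjusted p = 0.049), and that call was lost when any 1 array was left out (adjusted p 0.073 to 0.149). *Gins1*, of the same complex, had a log2 fold change of 0.21 with genotypes that did not overlap and an adjusted p of 0.056. *Gins1* passed without wild-type replicate 1 (0.012) and with array weights (0.0095). It also passed in the brightest 75% of genes (0.047) and with an intensity trend and robust variances (0.046). The licensing factor *Cdt1* had a difference of 0.14 that passed only without wild-type replicate 1 or with array weights (adjusted p = 0.028 and 0.040, against 0.144). The loader *Cdc6* differed by 0.01 (adjusted p = 0.928) and *Mcm10*, which helps activate the helicase and is not part of the ring, by -0.11 (adjusted p = 0.148).

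Of 6 genes of the polymerases and the lagging strand, *Prim1*, *Lig1* and *Pole* were higher and the other 3 did not pass. *Prim1*, the catalytic subunit of primase, was at 5.86, 5.91 and 5.66 in wild-type and at 6.33, 6.40 and 6.37 in dKO cells, which was 1.47-fold higher (0.56 ± 0.07, adjusted p = 2.0e-04). DNA ligase 1 (*Lig1*), which seals Okazaki fragments, was at 6.89, 6.84 and 6.86 against 7.19, 7.25 and 7.09 (0.32 ± 0.05, adjusted p = 0.0018). *Pole*, the catalytic subunit of polymerase epsilon on the leading strand, gave 6.26, 6.33 and 6.12 against 6.54, 6.45 and 6.47 (0.25 ± 0.06, adjusted p = 0.013). None of these 3 overlapped between genotypes, and *Pole* alone among them did not pass with Student's t-test (adjusted p = 0.096). *Pola1*, the catalytic subunit of polymerase alpha, had a difference of 0.14 without overlap that missed the threshold (adjusted p = 0.054) but passed with Student's t-test (0.035), array weights, either filter on dim genes, or quantile (0.027) or cyclic loess normalization (0.044). The flap endonuclease *Fen1* differed by 0.07 (adjusted p = 0.506). The sliding clamp *Pcna* was at 11.76 to 11.81 in wild-type and 11.72 to 11.78 in dKO arrays, and its difference of -0.05 had a 95% interval of -0.15 to 0.05.

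Among enzymes of nucleotide supply, the 2 subunits of ribonucleotide reductase had differences of opposite sign, of which that of *Rrm1* passed the test. The large subunit *Rrm1* was at 8.66, 8.70 and 8.63 in wild-type and at 9.05, 8.95 and 8.96 in dKO cells (0.32 ± 0.05, adjusted p = 9.8e-04). The small subunit *Rrm2*, made mainly in S phase, was at 7.07, 6.94 and 6.89 in wild-type and at 6.88, 6.74 and 6.65 in dKO cells. Its difference of -0.21 did not pass (adjusted p = 0.055), although all 3 dKO arrays lay below the wild-type arrays. Leaving out wild-type replicate 3 (0.047) or dKO replicate 1 (0.024) brought it under the threshold. So did either filter on dim genes (0.047 and 0.035), array weights (0.024) and a block for the replicate number (0.014). Cyclic loess normalization brought it just under (0.050 after rounding). Thymidylate synthase *Tyms* differed by -0.12 (adjusted p = 0.392; 0.022 without wild-type replicate 3) and thymidine kinase *Tk1* by -0.04 (adjusted p = 0.744).

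The 2 S-phase genes that fell both act at entry into the phase. *Ccne1*, which encodes the E1 partner of Cdk2, was at 7.04, 7.19 and 7.20 in wild-type and at 6.26, 6.11 and 6.26 in dKO cells. That is 52.4% of the wild-type intensity (-0.93 ± 0.06, adjusted p = 6.5e-06), the largest change of any member in either direction. *Ccne2*, its paralog, lay near the first quartile of all genes and differed by -0.11 (adjusted p = 0.227). *Cdk2* itself differed by 0.13 (adjusted p = 0.116) without overlap. The activator *E2f2* was at 7.54, 7.46 and 7.34 in wild-type and at 6.82, 6.81 and 6.82 in dKO cells, 64.7% of the wild-type intensity (-0.63 ± 0.06, adjusted p = 3.5e-05). The other activators *E2f1* (-0.12, adjusted p = 0.259) and *E2f3* (-0.13, adjusted p = 0.156) and the atypical repressors *E2f7* (-0.13, adjusted p = 0.228) and *E2f8* (-0.08, adjusted p = 0.390) did not pass, and all 5 E2F differences were below 0.

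Most mitotic genes were not separated by genotype at this number of arrays. *Cdk1*, the kinase that drives mitosis, was at 6.45 to 6.54 in wild-type and 6.44 to 6.58 in dKO arrays, and its difference of 0.01 had a 95% interval of -0.11 to 0.13. Its partners cyclin A2 (*Ccna2*, -0.15, adjusted p = 0.607) and cyclin B2 (*Ccnb2*, -0.27, adjusted p = 0.217) spread widely among the dKO arrays, at 6.96, 6.41 and 6.30 for *Ccna2* and 7.34, 6.89 and 6.67 for *Ccnb2*. *Ccnb2* passed without dKO replicate 1 (adjusted p = 0.0064). *Mki67*, which encodes the Ki-67 antigen of cycling cells, was at 7.0, 6.80 and 6.53 in wild-type and at 6.41, 6.10 and 5.97 in dKO cells, 65.2% of the wild-type intensity (-0.62 ± 0.13, adjusted p = 0.0062). Topoisomerase IIα (*Top2a*), which untangles sister chromatids, was at 6.57, 6.16 and 6.06 against 6.01, 5.86 and 5.46 (-0.48 ± 0.15, adjusted p = 0.044). Both were lower in every dKO array than in any wild-type array, but by a margin smaller than the spread within either genotype. The call of *Top2a* was lost without wild-type replicate 1 or 2 or dKO replicate 2 or 3 (adjusted p 0.068 to 0.137) and after quantile or cyclic loess normalization (0.067 and 0.060). Neither gene passed with Student's t-test (adjusted p = 0.127 for *Mki67* and 0.265 for *Top2a*). In sorted bulk cells, fewer cycling cells and less RNA per cell cannot be told apart.

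Among kinases, checkpoint and chromosomal passenger genes, *Cdc20*, the activator of the anaphase-promoting complex, was at 6.90, 6.97 and 6.89 in wild-type and at 7.15, 7.08 and 7.09 in dKO cells (0.18 ± 0.05, adjusted p = 0.019), without overlap. Its call was lost without wild-type replicate 1 or 3 or dKO replicate 1 (adjusted p 0.057 to 0.062). Aurora A (*Aurka*) differed by 0.14 with an adjusted p of 0.093, and *Aurkb* (-0.11), *Plk1* (-0.08), *Birc5*, which encodes survivin (-0.10), and the checkpoint kinase *Bub1* (-0.14) had adjusted p from 0.200 to 0.683. The kinesins *Kif11* (-0.25, adjusted p = 0.171) and *Cenpe* (0.02, adjusted p = 0.906) did not pass. *Bub1* and *Cenpe* lay under the first quartile of all genes on all 6 arrays, where RMA compresses differences.

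Within each genotype the mitotic genes largely shared 1 order of the arrays. Wild-type replicate 1 had the highest wild-type value of 10 of the 13 and wild-type replicate 3 the lowest of 11, while dKO replicate 1 had the highest dKO value of 11 and dKO replicate 3 the lowest of 12. Each gene's deviation from its own mean of 6 arrays averaged 0.191, 0.071 and -0.050 over the mitotic genes in wild-type arrays 1, 2 and 3, and 0.087, -0.090 and -0.209 in the dKO arrays, so that dKO replicate 1 lay above 2 of the 3 wild-type arrays. The mean over the helicase genes had the same order within each genotype but no overlap between genotypes. It was -0.079, -0.156 and -0.282 in wild-type and 0.210, 0.164 and 0.143 in dKO arrays. Gene by gene, *Mcm2* and *Mcm3* had this order in both genotypes, and *Mcm4*, *Mcm5*, *Mcm6* and *Mcm7* did not. Replicate 1 was also the highest and replicate 3 the lowest of each genotype in the mean of the markers of DP and of double-negative thymocytes. Among the DP markers, the recombinase gene *Rag1* had this order at 7.03, 6.52 and 6.33 in wild-type and 6.39, 5.97 and 5.87 in dKO arrays (-0.55 ± 0.17, adjusted p = 0.044). *Dntt* had it at 7.84, 7.68 and 7.48 against 9.43, 9.18 and 8.97, with a rise in dKO cells (1.52 ± 0.12, adjusted p = 1.4e-05). *Rag2* and *Arpp21* had the order too, but both were dim. On all 6 arrays *Rag2* lay under the first quartile and *Arpp21* under the median. The other DP markers *Cd8a*, *Cd8b1*, *Ptcra*, *Cd24a* and *Aqp11* did not have it in both genotypes. *Cd24a* ran the other way in wild-type arrays, at 7.91, 8.05 and 8.14. The call of *Rag1* was lost without wild-type replicate 1 or 2 or dKO replicate 2 or 3 (adjusted p 0.070 to 0.150). The part of cells at these stages in the changes of *Mki67* and *Top2a* was not tested.

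**Figure D4:**
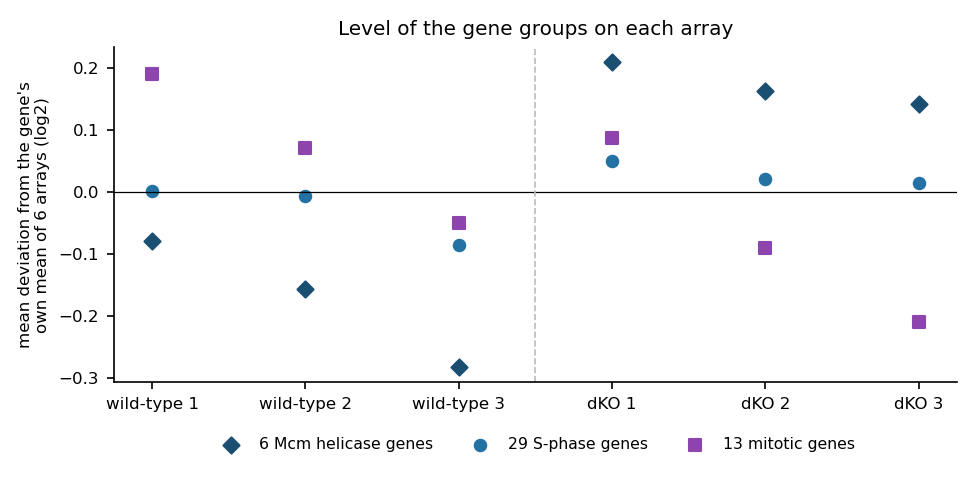
Mean over a gene group of each gene's deviation from its own mean of 6 arrays (y axis, log2 units) on each array (x axis), for the 6 helicase genes, all 29 S-phase genes and the 13 mitotic genes. The helicase genes separate the genotypes, from -0.282 to -0.079 in wild-type and 0.143 to 0.210 in dKO, whereas the mitotic genes range from -0.050 to 0.191 in wild-type and -0.209 to 0.087 in dKO.

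Other genes of the same processes, from lists also drawn up with earlier results known, were counted for comparison. Of 44 other replication genes measured, 19 were higher (43.2%, against 13.1% of all genes), 4 lower (9.1%, against 10.0%) and 21 not called. Their median was 0.11. With 1 array left out 13 to 18 were higher, and with Student's t-test 5 were higher and 4 lower. The 4 with the smallest p were *Pole2*, *Slbp*, *Mcm9* and *Rfc4*. *Pole2*, the accessory subunit of polymerase epsilon, was at 8.16, 8.04 and 7.86 in wild-type and at 6.62, 6.70 and 6.81 in dKO cells (-1.31 ± 0.08, adjusted p = 2.9e-06), opposite in direction to *Pole*. Likewise *Mcm9*, a paralog of the helicase subunits that acts in repair, fell (-0.56 ± 0.06, adjusted p = 1.6e-04), opposite to *Mcm2* to *Mcm7*, while its partner *Mcm8* rose (0.28 ± 0.07, adjusted p = 0.021), a call lost without wild-type replicate 1 or 2 or dKO replicate 1 or 3 (0.051 to 0.065). The remaining genes that fell were *Rpa1*, the large subunit of the single-strand binding protein (-0.25 ± 0.05), and *Uhrf1*, which guides maintenance methylation (-0.28 ± 0.06). The other subunits of the binding protein, *Rpa2* (0.30 ± 0.06, adjusted p = 0.0057) and *Rpa3* (0.61 ± 0.12, adjusted p = 0.0045), rose. Histone mRNA-binding *Slbp* (0.46 ± 0.05) and the clamp loader *Rfc4* (0.59 ± 0.07) rose. Named, like *Rpa2* and *Rpa3*, after their values were seen, the origin recognition subunits *Orc2*, *Orc3*, *Orc5* and *Orc6*, the polymerase delta subunits *Pold1*, *Pold2* and *Pold3*, and *Pola2* and *Prim2*, which complete the primase complex with *Pola1* and *Prim1*, were among those that rose, by 0.18 to 0.45. The calls of *Orc3*, *Orc6*, *Pold1* and *Prim2* did not survive every omission of 1 array. Of the other origin recognition subunits, *Orc1* differed by -0.05 and *Orc4* by -0.17 without overlap (adjusted p = 0.087), and *Orc4* passed as lower after quantile or cyclic loess normalization, with array weights and without dKO replicate 1 (0.029 to 0.038).

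Of 55 other mitotic genes, 7 were higher, 6 lower and 42 not called, with a median of -0.03, so that the share called, 23.6%, was near that of all genes. Without wild-type replicate 2 or 3, 3 were higher, and without dKO replicate 1 or 2, 4 were. Without wild-type replicate 1 or dKO replicate 2 or 3, 4 were lower. With Student's t-test 1 was higher and 3 lower. The spindle checkpoint gene *Mad2l1* was at 8.18, 8.10 and 8.07 in wild-type and at 9.08, 8.79 and 8.90 in dKO cells (0.81 ± 0.07, adjusted p = 3.0e-05). The phosphatase gene *Cdc25b*, an activator of Cdk1, was at 7.40, 7.25 and 7.20 against 6.51, 6.53 and 6.47 (-0.78 ± 0.06, adjusted p = 1.4e-05). Both separated the genotypes without overlap. The kinetochore gene *Ndc80* (-0.33 ± 0.05) and the centromeric histone *Cenpa* (-0.24 ± 0.05) fell as well.

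Of 18 regulators of the Rb, E2F and DREAM network, 6 were higher, 2 lower and 10 not called (44.4% called, 23.1% over all genes). Their median was 0.08. With Student's t-test 3 were higher and 1 lower, and without wild-type replicate 3, 3 were lower. *Rb1* was at 10.35, 10.36 and 10.51 in wild-type and at 9.78, 9.74 and 9.93 in dKO cells (-0.59 ± 0.07, adjusted p = 1.5e-04), and *Myb* was the other that fell (-0.40 ± 0.08, adjusted p = 0.0039). *Lin9*, a core subunit of the MuvB complex (0.42 ± 0.05, adjusted p = 4.1e-04), and the repressor *E2f6* (0.32 ± 0.07, adjusted p = 0.0065) rose. Of 23 genes of the fork checkpoint and DNA repair measured, 6 were higher, none was lower on the deposited values by limma (1 at an unadjusted p under 0.05, none with Student's t-test, and 1, *Atm*, with quantile or cyclic loess normalization, with array weights or without wild-type replicate 3 or dKO replicate 3) and 17 were not called, with a median of 0.07. The share called, 26.1%, was near the 23.1% of all genes. All of it was higher, against 13.1% higher and 10.0% lower over all genes. The mismatch repair gene *Msh6* (0.45 ± 0.06), the Fanconi anaemia gene *Fanci* (0.50 ± 0.07), *Parp1* (0.34 ± 0.05) and the uracil glycosylase *Ung* (0.39 ± 0.06) were those with the smallest p. For scale, *Ccnd2*, the cyclin D2 gene that acts upstream of Rb, differed by -2.85 (adjusted p = 1.0e-08).

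**Figure D5:**
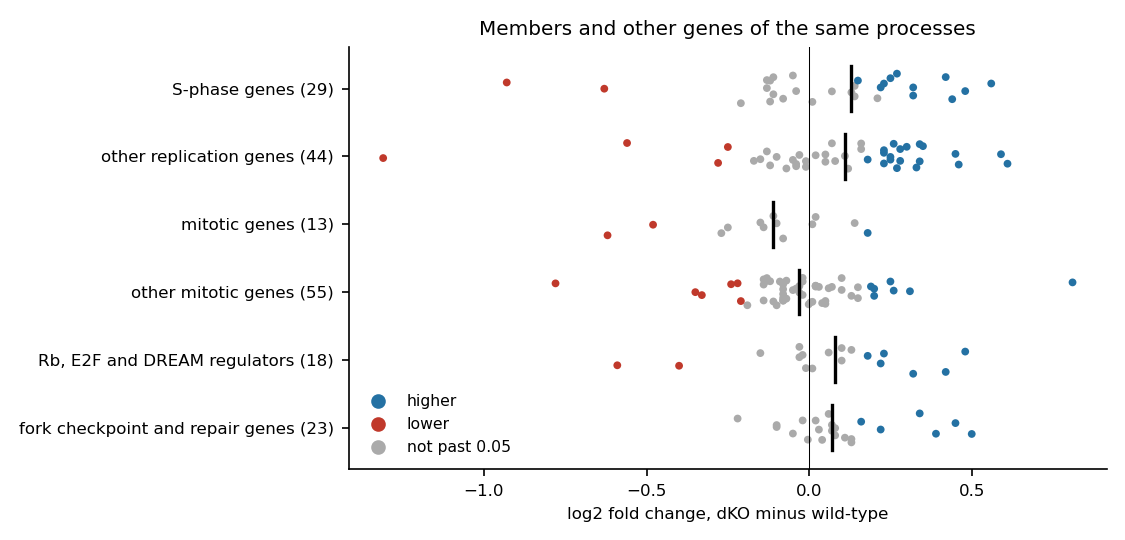
Log2 fold change (dKO minus wild-type, x axis) of every measured gene of the 2 member groups and of 4 lists of other genes, with the number of genes in brackets and the median of each list as a black bar. Medians run from -0.11 for the mitotic genes to 0.13 for the S-phase genes, and blue and red mark genes called higher and lower at an adjusted p under 0.05.

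Markers of CD4 T cells were far above the array medians on every array, as for *Cd3e* (12.99 to 13.11) and *Cd4* (12.11 to 12.32). Of 11 markers of mature CD4 SP thymocytes, *Il7r* was higher in dKO cells and *Cd5* (-0.43), *Zbtb7b* (-0.27), *Gata3* (-0.24), *Lat* (-0.15) and *Themis* (-0.24) were lower. The summed linear intensity of the list ran from 42293 to 44316 in wild-type and from 42534 to 43007 in dKO arrays. Of 9 DP-stage markers, *Dntt* and *Cd8b1* were higher and *Rag1* and *Arpp21* lower in dKO cells. The call of *Arpp21*, like that of *Rag1*, was lost without wild-type replicate 1 or 2 or dKO replicate 2 or 3 (adjusted p 0.073 to 0.084). The summed linear intensity of the DP-stage markers ran from 1906 to 2099 in wild-type and from 2579 to 2855 in dKO arrays. Such sums weigh bright genes most. The rise lay mainly in *Cd8b1* (mean 9.57 in wild-type and 10.11 in dKO) and *Dntt* (7.67 and 9.19). Of 8 double-negative-stage markers only *Il2ra* was called, lower, with sums of 900 to 921 and 590 to 784. The drop of these sums lay mainly in *Il2ra*, the brightest of the list (mean 8.96 in wild-type and 8.01 in dKO). Of 7 B-cell markers only *Cd79b* was called, lower (327 to 340 and 277 to 288), and *Cd79a*, *Ms4a1* and *Ebf1* lay under the first quartile on every array. The drop of the B-cell sums lay mainly in *Cd79b* (mean 7.14 in wild-type and 6.51 in dKO). Of 10 macrophage and dendritic cell markers, *Lyz2* was higher and *Cd68* and *Itgam* lower (522 to 551 and 486 to 553). Of 7 erythroid markers only *Tfrc*, also a gene of proliferating cells, was lower (452 to 467 and 423 to 443). The calls of *Lyz2* and *Tfrc* were lost without any 1 wild-type array or dKO replicate 1 or 2 (adjusted p 0.058 to 0.126). Of 8 thymic epithelial markers, *Epcam* was higher and *Prss16*, *Ly75* and *Cldn4* lower (798 to 806 and 723 to 752). For comparison, 23.1% of all genes were called, 13.1% higher and 10.0% lower. The share called was above 23.1% in the mature CD4 SP, DP-stage, macrophage and dendritic cell, and thymic epithelial lists. It was below 23.1% in the double-negative-stage, B-cell and erythroid lists. Each list held only 7 to 11 genes, and the shares were not tested against that of all genes. The part of these cell types in the differences above was not tested.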

How the data were processed

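RNA of 3 wild-type and 3 dKO samples of sorted mature CD4 SP thymocytes was hybridized to 1 array each. The Methods and the row annotation give Affymetrix Mouse Gene 1.0 ST, and the series' design text names Mouse Exon 1.0 ST. The deposited values are log2 intensities made by the authors with Partek and RMA, and no version is given for them in the labels or Methods. Since RMA gives the probe values of every array the same distribution, a shift shared by most genes would be hidden, and differences of dim genes are compressed. The summarized rows were not made equal, and their array medians lay between 6.27 and 6.32.

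Of 25254 rows, 21496 had 1 gene symbol, 1565 several and 2193 none, and the latter 2 kinds were left out. Symbols were updated with RefSeq (GRCm38.p6), which held 21415 of the rows, and 81 kept the annotation's symbol. The brightest row per gene was kept (19752 genes; 3 members had more than 1 row). limma 3.58.1 in R 4.3.3 was fitted to all genes with genotype as the only term, without renormalization or filter, with Benjamini-Hochberg adjustment and a threshold of 0.05. Precision is limited by 3 arrays per genotype. Alternatives were 2 normalizations, 2 filters on dim genes, all rows, other variance models, Student's t-test, a block for the replicate number and leaving out each array. Any member could be named, with the 4 genes of smallest p in each other list, all genes behind a count of 5 or fewer, the targeted genes and defining markers; others are said to have been named after their values were seen, as were *Mcm8*, *Ccnd2* and *Atm*. Members and lists were chosen with earlier results of these data known.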

Additional observations from a re-analysis of the deposited data

How the results depend on the processing

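Of 16 members called, 7 kept their call and direction under every alternative run for them, namely *Mcm4*, *Mcm5*, *Rrm1*, *Lig1*, *Ccne1* and *E2f2*, and *Prim1*, which the stricter filter on dim genes left out, and 10 did so when any 1 array was left out. With Student's t-test, 6 S-phase genes were higher (11 with limma), no mitotic gene was lower (2 with limma), and over all genes 1392 were higher and 1173 lower (2587 and 1976 with limma). The number of mitotic genes called lower was 1 after quantile or cyclic loess normalization, in the brighter 50% of genes, over all rows and with an intensity trend and robust variances. Array weights gave 4 S-phase genes called lower. The median of the S-phase genes was 0.09 after either normalization. With 1 array left out, 2 to 4 S-phase and 1 to 3 mitotic genes were lower, 8 to 12 S-phase and 0 to 1 mitotic genes were higher, and the S-phase median ran from 0.09 to 0.13 and the mitotic median from -0.17 to -0.06. The sign of small differences turned for *Cdc6* (-0.05 with array weights, -0.03 to 0.08 with 1 array left out), *Fen1* (-0.0039 with array weights), *Tk1* (-0.10 to 0.01 with 1 array left out), *Cdk1* (-0.02 to 0.05), *Plk1* (-0.21 to 0.0032) and *Cenpe* (-0.04 to 0.08). The cause was not tested. Counting *Ccna2* with the S-phase genes changed no count of calls. With the replicate number as a block, 10 S-phase genes were higher and 3 lower, and 1 mitotic gene was higher and 3 lower; over all genes 2574 were higher and 1970 lower. In that fit *Kif11* (adjusted p = 0.013) and *Rrm2* (0.014) passed as lower and *Gins2* did not pass (0.072). The labels tie same-numbered arrays of the 2 genotypes by nothing but the number. Deviations of same-numbered arrays correlated at 0.0993, 0.0243 and 0.0697, and 5 of 6 arrays correlated best with the array of their own number. Whether same-numbered samples were handled together was not tested.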

Other observations

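Other rows of 3 members were not used above. The second row of *Pcna* differed by -0.06 (limma over all rows, adjusted p = 0.446) and that of *E2f3* by -0.11 (adjusted p = 0.241), close to the rows used. The second row of *Tk1* was dimmer, at 5.75 on average in wild-type and 5.53 in dKO cells, and differed by -0.22 (adjusted p = 0.185), where the row used differed by -0.04. None of these passed the threshold.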
